A study of Mus musculus with 22 samples.

Results

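The 42 genes described here encode proteins of the extracellular matrix, the meshwork that surrounds and joins cells. They were a list of 42 of the 31053 genes counted, chosen with earlier results of these data known. Each was followed in CPM (a gene's share of the UMIs of a class of cells in a library, scaled to the customary common total) over classes of cells chosen by marker genes that are not on the list. The 42 genes fall into 5 fibrillar collagens, 3 chains of collagen VI, 4 other collagens, 13 components of basement membranes, 8 components of elastic fibres, 4 leucine-rich proteoglycans and 5 adhesive and matricellular proteins. The study examined loss of Nalcn, which encodes a sodium leak channel, in mice, and the single-cell libraries used here came from mice without tumours. A unique molecular identifier (UMI) marks 1 captured transcript, and the 3′ chemistry counts each transcript once whatever its length.

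All mice carried Prom1-CreERT2;Rosa26ZSG, so that tamoxifen, given in early or young adult life per the methods, switched on the green tag ZSG and, where present, recombined the conditional Nalcn allele in cells that use the Prom1 promoter. Mice called wt here had no further allele, and the others carried Nalcn-het or Nalcn-null (Prom1-CreERT2;Rosa26ZSG;Nalcn-het and Prom1-CreERT2;Rosa26ZSG;Nalcn-null), with 1 or both copies of Nalcn open to recombination. Cells that never used Prom1 keep the gene, so a class of cells from a mouse labelled null is a mixture. Pooled organs (kidney, liver, lung and stomach with epididymis in males or uterus in females, called tissue below) gave 5 wt libraries from mice 571 to 654 days old, 2 het libraries from mice 551 days old and 2 null libraries from mice 552 and 611 days old, of which 2 wt and 1 null library were from females. Circulating cells sorted for the tag (ntCZC) gave 2 wt libraries at 571 and 608 days, 4 het libraries at 551 to 649 days and 4 null libraries at 551 to 613 days. A single library of unsorted blood mononuclear cells (PBMC) came from a wt male of 120 days. The labels do not tie libraries to animals, so n counts libraries, and p-values measure the spread between libraries. For 2 further tissue libraries the name and the strain field disagreed on genotype, and these entered no comparison.

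Fibrillar collagens assemble into the fibres that give tissue its tensile strength, and collagen VI forms beaded filaments around cells. Basement membranes are thin sheets under epithelia and around vessels and muscle cells, built from networks of collagen IV and of laminin that nidogen and perlecan join. Elastic fibres hold a core of elastin on fibrillin microfibrils, decorin and its relatives bind collagen fibrils, and matricellular proteins such as SPARC regulate the matrix without building it. Fibroblasts are the best known makers of interstitial matrix, whereas endothelial, epithelial and smooth muscle cells lay down parts of their own basement membrane.

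Promoters of 28 of the 42 genes were found in the RefSeq sequences of GRCm38.p6, from 250 bases before to 50 bases after the transcription start. These 4 are shown, 2 of interstitial collagens that marked fibroblasts and 2 of basement membrane collagens that did not, because the contrast between them runs through the results. Col1a2, a chain of collagen I (chr6:4505368-4505667, plus strand), had 61% G and C and 2 matches to CCAAT read on both strands, in capitals. Col3a1, the chain of collagen III (chr1:45311288-45311587, plus strand), had 37.7% G and C, 1 match to TATAAA, in capitals, and no match to CCAAT in this window. Col4a1 (chr8:11312777-11313076, minus strand) and Col4a2 (chr8:11312555-11312854, plus strand), the chains of the common collagen IV, start 21 bases apart on opposite strands. Their windows share 78 bases, in capitals, each printed 5′ to 3′ on the strand of its gene.
Col1a2: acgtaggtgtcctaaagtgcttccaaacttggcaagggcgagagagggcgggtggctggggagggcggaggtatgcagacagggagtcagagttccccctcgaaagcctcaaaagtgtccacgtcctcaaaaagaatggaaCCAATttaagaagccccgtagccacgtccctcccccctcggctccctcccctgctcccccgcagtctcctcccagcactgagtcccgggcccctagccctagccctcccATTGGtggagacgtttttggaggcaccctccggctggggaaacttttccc
Col3a1: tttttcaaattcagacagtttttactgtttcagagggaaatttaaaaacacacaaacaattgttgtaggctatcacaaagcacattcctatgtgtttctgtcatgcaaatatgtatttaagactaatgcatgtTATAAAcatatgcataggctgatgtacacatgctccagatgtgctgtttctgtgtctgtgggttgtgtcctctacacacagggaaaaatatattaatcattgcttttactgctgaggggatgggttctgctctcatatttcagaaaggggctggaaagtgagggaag
Col4a1: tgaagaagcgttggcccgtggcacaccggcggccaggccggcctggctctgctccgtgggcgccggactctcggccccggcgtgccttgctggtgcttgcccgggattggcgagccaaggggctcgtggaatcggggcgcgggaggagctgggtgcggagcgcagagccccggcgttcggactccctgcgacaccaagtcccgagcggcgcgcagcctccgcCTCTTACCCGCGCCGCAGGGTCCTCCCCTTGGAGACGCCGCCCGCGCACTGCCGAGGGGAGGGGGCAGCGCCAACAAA
Col4a2: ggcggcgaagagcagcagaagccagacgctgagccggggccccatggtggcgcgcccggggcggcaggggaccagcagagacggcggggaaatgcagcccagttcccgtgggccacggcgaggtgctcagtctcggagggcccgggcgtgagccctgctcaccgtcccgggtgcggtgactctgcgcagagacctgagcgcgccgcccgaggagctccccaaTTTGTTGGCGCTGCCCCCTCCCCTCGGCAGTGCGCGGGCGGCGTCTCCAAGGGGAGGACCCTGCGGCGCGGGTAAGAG

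The 2 collagen IV windows had 74% and 73.7% G and C, against a median of 52.7% over 32851 promoters of the same length. CCAAT was present on either strand in 9 of the 28 promoters of matrix genes and in 37.4% of all promoters. The letters GGGCGG were present in 18 of 28, against 35.7% of all promoters, and TATAAA in 4 of 28, against 13.6%. A match in a window is a description of its letters and not a bound site.

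The 9 tissue libraries held 143502 barcodes (1856 to 27857 each) and 8571019 to 139793927 UMIs each, and 72758 barcodes passed the filters (200 genes or more, mitochondrial UMIs not above 25%). A cell entered a class when at least 2 marker genes of that class and fewer than 2 of every other class were detected, which placed 48374 cells (66.5%). Another 17051 cells (23.4%, from 9.39% to 41.5% by library) met the marker rule of more than 1 class, as doublets would, and were left out. Fibroblasts numbered 1049 in all and at least 20 in 8 libraries, which entered the comparisons. Smooth muscle and mural cells numbered 309 (at least 20 in 7 libraries), mesothelial cells 249 (in 4), endothelial cells 9227 (in 8), epithelial cells 5088 (in 8) and leukocytes 32452 (in 9). Independent markers that were not used for the gates had their highest mean in their own class for smooth muscle, endothelial, mesothelial and epithelial cells and leukocytes. Mesothelial and epithelial libraries overlapped in both of their sets. The mesothelial markers ran from 577 to 781 CPM in mesothelial and from 64.2 to 896 in epithelial libraries. The epithelial markers ran from 649 to 2210 CPM in epithelial and from 637 to 1239 in mesothelial libraries. Independent fibroblast markers (Pdgfrb, Mmp2 and Vim) did not separate fibroblasts, at 1682 CPM summed in fibroblasts, 1200 in smooth muscle and 1211 in leukocytes. The fibroblast gate therefore rests on its 11 gate markers. These stood at 5846 CPM in fibroblasts and between 34.6 and 337 in the other classes, a contrast that the gate itself sets. Epithelial cells also carried 680 CPM of leukocyte gate markers. No more than 2.60% of the barcodes of the smaller library were shared between 2 libraries. Nalcn had 0 to 18 UMIs per tissue library and none in ntCZC or PBMC, so the deletion could not be checked from these counts. Null replicate 3 of tissue, a female by its label, showed both Xist (1347 CPM) and Y-linked transcripts (31.2 CPM), where the tissue libraries labelled male held Y-linked transcripts at 134 to 192 CPM and the other females at most 0.117.

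Matrix genes took up the largest part of the transcriptome in fibroblasts. Together they made up 3.01% ± 0.256 of fibroblast UMIs (SD, n = 8) and 1.37% ± 0.269 of mesothelial UMIs (SD, n = 4), followed by 0.694% ± 0.0624 in smooth muscle (SD, n = 7) and 0.274% ± 0.0315 in endothelial cells (SD, n = 8). They were 0.0506% ± 0.0184 in epithelial cells (SD, n = 8) and 0.0324% ± 0.0116 in leukocytes (SD, n = 9). Fibroblast libraries (2.68% to 3.40%) all lay above the libraries of every other class. Lymphoid leukocytes, which are not known to make interstitial matrix, stood at 0.0186% and serve as a low reference class. They were not free of the listed genes, with mean CPM of 24.99 for Nid1, 17.4 for Lamc1 and 17.1 for Dcn. By mean CPM 32 of the 42 genes were highest in fibroblasts, 7 in smooth muscle (Col8a1, Col12a1, Col13a1, Col4a1, Col4a2, Col18a1 and Sparcl1) and 1 each in endothelial (Hspg2), mesothelial (Col4a4) and epithelial cells (Col4a3). The map of class means shows this division by gene.

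**Figure D1:**
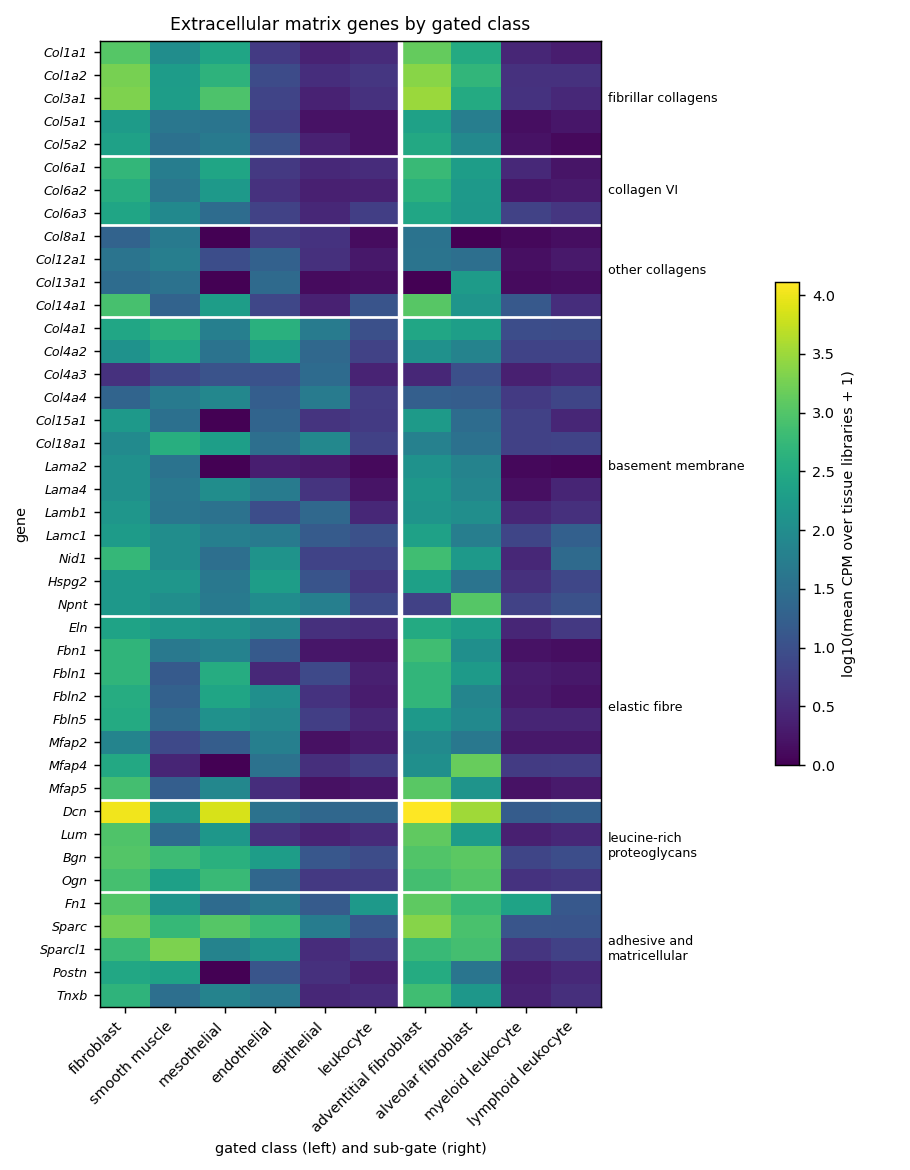
Mean CPM of the 42 matrix genes (rows) over tissue libraries in 6 gated classes and in sub-gates (columns), coloured as log10(CPM + 1). Fibroblasts have the highest mean for 32 genes, while Col4a1, Col4a2, Col18a1 and Sparcl1 are highest in smooth muscle and Col4a3 in epithelial cells.

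Differences between classes were tested on counts summed per class and library with edgeR's quasi-likelihood test, library as a block and Benjamini-Hochberg adjustment over 13402 genes, and a gene was called at an adjusted p of at most 0.05. Against smooth muscle, 30 of the 42 matrix genes were higher and 3 lower in fibroblasts, where 23.0% of all genes were called (14.6% higher, 8.42% lower). Against mesothelial cells 31 were higher and 1 lower (9.21% of all genes called, 5.43% higher and 3.78% lower), and against endothelial cells 35 were higher and 2 lower (40.1%, 19.1% and 21.0%). Against epithelial cells 39 were higher and 2 lower (52.5%, 18.8% and 33.7%), and against leukocytes 41 were higher and none lower (55.8%, 23.4% and 32.4%). Smooth muscle was higher than endothelial cells for 24 genes and lower for 4 (29.3% of all genes called, 10.8% and 18.5%), and endothelial cells were higher than epithelial cells for 29 and lower for 5 (67.5%, 27.5% and 40.1%). The median log2 difference of the 42 genes was 2.41 against smooth muscle, 3.25 against endothelial, 6.5 against epithelial cells and 6.77 against leukocytes, while the median over all genes lay between -0.28 and 0.19. In mesothelial cells 6 of the 42 genes had no UMI, and with these at their lower bounds the median was 2.08. With no marker of another class allowed, fewer cells remained, and 21 genes were called against smooth muscle, 6 (all higher) against mesothelial cells and 4 (all higher) between smooth muscle and endothelial cells, with 3.29%, 0.37% and 4.72% of all genes called.

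Scaling moved these medians over all genes. RLE scaling shifted the median over all genes by -0.13 against mesothelial cells, by 0.19 against leukocytes and by 0.17 for smooth muscle against endothelial cells, and DESeq2 by up to 0.32. Calls over all genes split into 728 higher and 506 lower against mesothelial cells, and into 561 and 608 under RLE scaling and 515 and 637 under DESeq2. For smooth muscle against endothelial cells the split was 1447 and 2484, against 2252 and 1810 under DESeq2, and 1759 and 1943 under RLE scaling. For fibroblasts against leukocytes it was 3139 and 4340, against 3952 and 3348 under DESeq2 and 3634 and 3413 under RLE scaling. The counts of matrix genes called in these 7 comparisons stayed between 28 and 41 under either of these, and against endothelial cells 35 were higher in fibroblasts and 0 lower under both.

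The fibrillar collagens were higher in fibroblasts than in each other class. Col3a1 ran from 1421 to 2869 CPM over the 8 fibroblast libraries (median 1922), from 765 to 1184 over the 4 mesothelial libraries and from 55.8 to 566 over the 7 smooth muscle libraries. It was at most 16.6 CPM in an endothelial library and at most 4.15 in an epithelial one. Fibroblast libraries therefore lay above those of every other class without overlap, while mesothelial cells of a library with conflicting labels held 1530 CPM. Col1a2 ran from 1673 to 2163 CPM in fibroblasts (median 1823) and Col1a1, the other chain of collagen I, from 914 to 1263 (median 1031). Against endothelial cells, Col3a1 was higher by 8.80 ± 0.39 on the log2 scale (SE, adjusted p = 3.9e-21), and all 5 fibrillar collagens were called higher in fibroblasts against each of the 5 other classes. The call of Col3a1 against mesothelial cells (1.83) was lost with no marker of another class allowed (3.13, adjusted p = 0.071) and without the library block (1.40, adjusted p = 0.097). Smooth muscle was in turn higher than endothelial cells for all 5, with Col3a1 at 4.67 ± 0.43 (adjusted p = 9.5e-12), a call lost with no marker of another class allowed (3.83, adjusted p = 0.11).

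The 3 chains of collagen VI were also highest in fibroblasts. Col6a1 ran from 346 to 770 CPM in fibroblasts (median 533), Col6a2 from 243 to 513 (median 345) and Col6a3 from 179 to 536 (median 204). All 3 were called higher in fibroblasts against each other class, and none was called between endothelial and epithelial cells, where the means of all 3 chains were at most 5.52 CPM. Among the remaining collagens, Col14a1, a collagen that sits on the surface of fibrils, ran from 597 to 1371 CPM in fibroblasts (median 808) and had a mean of 19.4 CPM in smooth muscle. Col8a1, Col12a1 and Col13a1 were low in all 6 classes. In smooth muscle, where each had its highest mean, Col8a1 ran from 0 to 81.4 CPM and Col12a1 from 0 to 112, and neither differed from fibroblasts by the test (log2 -1.03 ± 0.55, adjusted p = 0.20, and -0.13 ± 0.48, adjusted p = 0.90). The smooth muscle mean of Col13a1 rested on 21 UMIs (34.3 CPM, against 27.3 in fibroblasts). In the alveolar fibroblasts described below Col13a1 ran from 79.6 to 237 CPM.

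Basement membrane genes did not follow the fibroblast order as a group. Against smooth muscle 6 of 13 were higher and 2 lower in fibroblasts, and against endothelial cells 8 were higher and 2 lower. Col4a1 stood at 422 ± 151 CPM in smooth muscle (SD, n = 7), 407 ± 79.2 in endothelial cells (SD, n = 8) and 272 ± 69.2 in fibroblasts (SD, n = 8), against 50.4 ± 36.3 in epithelial cells (SD, n = 8) and 8.07 ± 6.41 in lymphoid leukocytes (SD, n = 9). The first 3 of these overlapped from library to library. Endothelial cells were higher than epithelial cells by 2.92 ± 0.22 for Col4a1 and 2.78 ± 0.18 for Col4a2 (adjusted p = 1.2e-14 and 9.8e-17). Fibroblasts were lower than smooth muscle for Col4a2 (-0.79 ± 0.23, adjusted p = 0.008), while the difference for Col4a1 did not pass (-0.25 ± 0.25, 95% interval -0.76 to 0.26). The Col4a2 call was lost without wt replicate 2 (-0.67, adjusted p = 0.051), without het replicate 1 (-0.65, adjusted p = 0.051) and without wt replicates 1 and 2 (-0.73, adjusted p = 0.070), and with no marker of another class allowed its sign turned (0.31, adjusted p = 0.91). Against endothelial cells, fibroblasts were lower by -0.53 ± 0.22 for Col4a1 (adjusted p = 0.0497) and -0.54 ± 0.19 for Col4a2 (adjusted p = 0.021). These calls against endothelial cells were lost in 11 and 5 of the alternatives, RLE scaling, DESeq2 and the fit without het replicate 1 among them for both genes, and for Col4a1 also those without wt replicate 1, 2 or 3, het replicate 2 or null replicate 3 (adjusted p between 0.055 and 0.081). The number of Col4a2 UMIs per Col4a1 UMI, for the pair of genes whose shared promoter stretch is printed above, was 0.444 ± 0.0373 in endothelial cells (SD, n = 8), 0.444 ± 0.0711 in fibroblasts (SD, n = 8), 0.525 ± 0.110 in epithelial cells (SD, n = 8) and 0.653 ± 0.210 in smooth muscle (SD, n = 7). Libraries of the 4 classes overlapped in this ratio. The genes overlap on opposite strands.

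The chains of the other collagen IV network, which is known from the basement membranes of kidney and lung, were highest in epithelial and mesothelial cells. Col4a3 ran from 5.11 to 75.2 CPM over epithelial libraries (median 19.95) and was lower in fibroblasts by -2.83 ± 0.46 (adjusted p = 2.2e-06) and in endothelial cells by -1.65 ± 0.25 (adjusted p = 2.1e-07). Col4a4 stood at 78.5 ± 10.1 CPM in mesothelial cells (SD, n = 4; 67.8 to 91.1), 51.1 ± 28.6 in epithelial cells (SD, n = 8) and 20.3 in fibroblasts. It was the 1 matrix gene lower in fibroblasts than in mesothelial cells (-1.97 ± 0.43, adjusted p = 0.0015), a call lost with no marker of another class allowed (-1.98, adjusted p = 0.78). Col18a1, whose C-terminal fragment is endostatin, was highest in smooth muscle at 376 ± 103 CPM (SD, n = 7) and reached 202 ± 67.2 in mesothelial cells (SD, n = 4). It was lower in fibroblasts than in smooth muscle by -2.01 ± 0.32 (adjusted p = 3.6e-06), and lower in endothelial than in epithelial cells by -1.73 ± 0.25 (adjusted p = 1.4e-07). Against epithelial cells, fibroblasts did not differ detectably (-0.18 ± 0.29, adjusted p = 0.64), and the sign of this value turned when a single library was left out.

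Perlecan (Hspg2), the heparan sulfate proteoglycan of basement membranes, ran from 101 to 341 CPM in endothelial libraries (median 167) and from 94.0 to 208 in fibroblasts, and the test did not separate them (-0.20 ± 0.22, adjusted p = 0.50). Nid1, which links laminin to collagen IV, was highest in fibroblasts, from 296 to 749 CPM (median 556), and stood at 126 ± 23.7 CPM in endothelial cells (SD, n = 8). The laminin chains Lama2, Lama4, Lamb1 and Lamc1 had their highest means in fibroblasts, between 114 and 179 CPM. Lamb1 was lower in endothelial than in epithelial cells (-1.77 ± 0.29, adjusted p = 1.2e-06), at 8.46 and 23.6 CPM. Lama2 had no UMI in the 4 mesothelial libraries, which puts fibroblasts at least 12.4-fold higher against a floor of 3 UMIs over these libraries. Col15a1 was likewise at 0 there, and fibroblasts were at least 24.7-fold higher.

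All 8 elastic fibre genes were higher in fibroblasts than in smooth muscle. Mfap5, a microfibril-associated glycoprotein, ran from 546 to 932 CPM in fibroblasts (median 706) and was higher than in smooth muscle by 6.63 ± 0.46 (adjusted p = 8.1e-15). Fbn1, the fibrillin of the microfibril core, ran from 261 to 761 CPM (median 389) and Fbln1 from 365 to 604 (median 528). Eln itself differed less, at 237 CPM in fibroblasts, 155 in smooth muscle, 129 in mesothelial and 73.0 in endothelial cells (fibroblast against smooth muscle 0.92 ± 0.28, adjusted p = 0.012). Endothelial cells held 4 of these genes above smooth muscle. Mfap2 was lower in smooth muscle by -2.90 ± 0.45, Fbln2 by -4.38 ± 0.70, Mfap4 by -4.40 ± 0.97 and Fbln5 by -2.02 ± 0.53 (adjusted p between 1.7e-06 and 0.0025). With no marker of another class allowed, all 4 calls were lost with fewer cells, at log2 differences of -1.43, -9.60, -6.13 and -8.98 in this order (adjusted p = 0.62, 0.055, 0.71 and 0.30). Mfap2 in fibroblasts (69.4 ± 20.9 CPM, SD, n = 8) and endothelial cells (57.5 ± 17.9, SD, n = 8) was not separated by the test (0.40 ± 0.21, adjusted p = 0.14). Mfap4 had no UMI in the 4 mesothelial libraries, and fibroblasts were at least 56.1-fold higher than this, but it had 6 UMIs (43.0 CPM) in mesothelial cells of a library with conflicting labels. Endothelial cells exceeded epithelial cells for 7 of the 8, and Fbln1 was lower there (-1.64 ± 0.50, adjusted p = 0.0041), a call lost without wt replicate 4 (-1.06, adjusted p = 0.072).

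The leucine-rich proteoglycans were shared by fibroblasts and mesothelial cells to different degrees. Dcn, whose product decorin binds collagen fibrils, ran from 8385 to 13466 CPM over fibroblast libraries (median 10703), from 4938 to 10852 over mesothelial libraries and from 0 to 503 in smooth muscle, against 17.1 CPM in lymphoid leukocytes. Fibroblast and mesothelial libraries overlapped, and the test did not separate them (1.15 ± 0.55, adjusted p = 0.22), though with no marker of another class allowed Dcn was called higher in fibroblasts (3.49, adjusted p = 0.042). Lum, a second proteoglycan of collagen fibrils, ran from 432 to 1922 CPM in fibroblasts (median 871) and was higher there than in mesothelial cells by 3.45 ± 0.56 (adjusted p = 2.2e-05). Bgn ran from 739 to 1292 CPM in fibroblasts (median 1042) and was also abundant in smooth muscle, at 665 CPM (0.95 ± 0.26, adjusted p = 0.0049). Ogn stood at 784 CPM in fibroblasts and 607 in mesothelial cells (0.85 ± 0.36, adjusted p = 0.15).

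The adhesive and matricellular genes divided between classes. Sparc, which binds collagen, ran from 1403 to 1969 CPM in fibroblasts (median 1728), 926 to 1212 in mesothelial cells, 421 to 775 in smooth muscle and 473 to 808 in endothelial cells. The last 2 overlapped (smooth muscle against endothelial -0.35 ± 0.29, adjusted p = 0.41), and fibroblast libraries lay above all others, although the test against mesothelial cells did not pass (1.00 ± 0.36, adjusted p = 0.072). In edgeR alternatives Sparc was called there without the filter on low counts (1.02, adjusted p = 0.017) and with at least 3 markers (1.15, adjusted p = 0.041). Sparc was also called without wt replicates 1 and 2 (1.16, adjusted p = 0.045). Sparcl1, its close relative, had another order. It ran from 1164 to 3317 CPM in smooth muscle (median 1983) and from 427 to 823 in fibroblasts, lower in fibroblasts by -1.41 ± 0.26 (adjusted p = 6.0e-05). Fn1, which encodes fibronectin, ran from 470 to 1764 CPM in fibroblasts (median 1028) but from 0 to 48.4 in mesothelial cells, a difference of 6.01 ± 0.74 (adjusted p = 1.0e-07). It was also found in myeloid leukocytes, from 149 to 373 CPM, against 4.70 to 29.7 in lymphoid leukocytes. Postn stood at 289 CPM in fibroblasts and 229 in smooth muscle and had no UMI in the 4 mesothelial libraries, where the bound was at least 39.3-fold, with 6 UMIs (43.0 CPM) in the same library with conflicting labels. Tnxb was higher in fibroblasts against each of the other classes, at 476 CPM against at most 67.2.

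**Figure D2:**
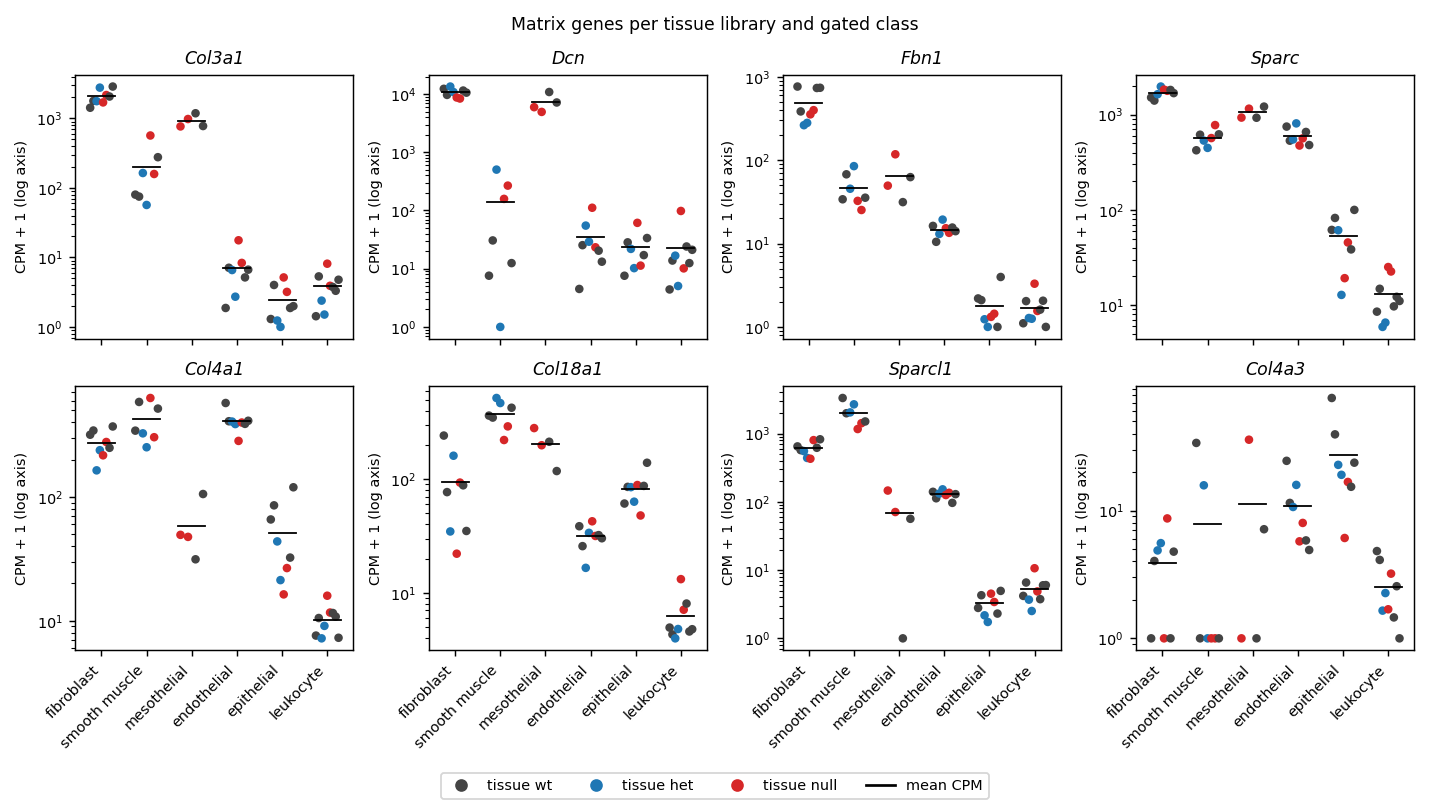
CPM + 1 (log axis) of 8 matrix genes in each tissue library (points, coloured by labelled genotype) for 6 gated classes, with black lines at the class mean. Col3a1, Dcn and Fbn1 peak in fibroblasts, Sparcl1 and Col18a1 in smooth muscle and Col4a3 in epithelial cells, while Col4a1 overlaps between fibroblast, smooth muscle and endothelial libraries.

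Fibroblasts were then divided by further markers into adventitial (Pi16, Clec3b, Scara5, Dpp4, Cd55 and Cd248) and alveolar cells (Tcf21, Inmt, Ces1d, Limch1 and Slc27a6). Matrix genes took 3.66% ± 0.538 of UMIs in adventitial cells (SD, n = 7) and 1.44% ± 0.231 in alveolar cells (SD, n = 3), of which all tissue libraries together held 411 and 141. Only het replicate 1, null replicate 2 and null replicate 3 held at least 20 cells of both, so the test had 3 libraries. No wt library entered it. Of the 42 genes 32 passed the filter on low counts, and 18 were higher and 2 lower in adventitial cells, where 16.7% of 1087 tested genes were called (9.66% higher, 6.99% lower). Called higher in adventitial cells were 5 of 5 fibrillar collagens, 4 of 7 elastic fibre genes (1 lower), 3 of 5 adhesive and matricellular genes, 2 of 4 leucine-rich proteoglycans, 1 of 3 collagen VI chains and 2 of 7 basement membrane genes (1 lower). Col3a1 stood at 2882, 1940 and 3396 CPM in adventitial and 409, 158 and 399 CPM in alveolar cells of these libraries (2.98 ± 0.31, adjusted p = 3.0e-04). Mfap5 was higher by 2.84 ± 0.40, Postn by 2.82 ± 0.46, Col14a1 by 2.82 ± 0.46 and Dcn by 1.96 ± 0.29 (adjusted p between 9.5e-04 and 0.0022).

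Npnt and Mfap4 went the other way. Npnt encodes nephronectin, a basement membrane ligand of the integrin that holds the Itga8 chain, and stood at 819, 986 and 1336 CPM in alveolar cells of the 3 libraries but at 6.79, 0 and 9.70 CPM in adventitial cells (-7.12 ± 0.50, adjusted p = 4.1e-05). Mfap4, a microfibril-associated protein, stood at 591, 2011 and 1689 CPM against 122, 109 and 136 (-3.36 ± 0.41, adjusted p = 6.1e-04). Col13a1, a membrane collagen, stood at 79.6, 237 and 215 CPM in alveolar cells and had no UMI in adventitial cells. This made alveolar cells at least 23.3-fold higher over the 3 libraries, on a floor of 3 UMIs. Bgn, Sparcl1, Lamb1 and Col4a1 did not pass, with log2 differences between -0.57 and 0.03, and Ogn did not pass (-0.90 ± 0.35, adjusted p = 0.12). Without null replicate 3 the counts were 5 higher and 2 lower, and Dcn, Postn and Col14a1 were no longer called (adjusted p between 0.054 and 0.069). With at least 3 markers Dcn was not called either (1.04, adjusted p = 0.16). Without het replicate 1 Ogn was called lower in adventitial cells (-1.32, adjusted p = 0.0017). Among the receptors Itga8, that receptor chain, was lower in adventitial cells by -7.96 ± 0.79 (adjusted p = 6.1e-04).

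**Figure D3:**
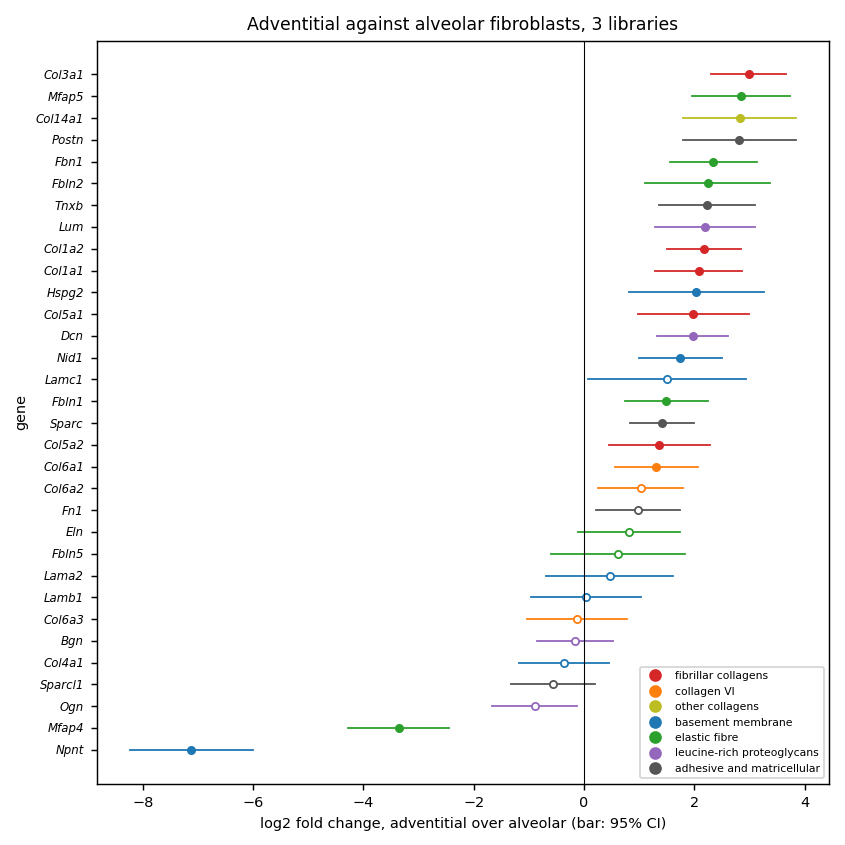
Log2 fold change (x axis) of 32 matrix genes (y axis) between adventitial and alveolar fibroblasts of the same 3 tissue libraries, with bars for the 95% interval. Npnt (-7.12) and Mfap4 (-3.36) lie to the alveolar side and Col3a1 (2.98) at the far adventitial side.

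The study asked what loss of Nalcn changes, and matrix genes were compared between het and null libraries together (Nalcn-deleted) and wt libraries within each class, with sex as covariate. From tissue sections, the paper reports fibrosis of kidney and skin in aged tumour-free mice of both deleted genotypes. Skin was not among the organs pooled here, and cells had no organ of origin, so kidney was not compared alone. No matrix gene was called in any class by edgeR. In fibroblasts (4 wt, 2 het and 2 null libraries) 39 genes were tested, 4 had an unadjusted p under 0.05 and DESeq2 called 1, where edgeR called 0.157% of 4471 genes (0.0895% higher, 0.0671% lower). In smooth muscle 18 were tested (2 at unadjusted p under 0.05, 0 by DESeq2), in endothelial cells 38 (5 and 0), in epithelial cells 28 (5 and 2) and in leukocytes 32 (2 and 0). In these 4 classes edgeR called 0.0%, 0.0%, 0.0151% and 0.0% of all genes. Over all genes, 6.8% had an unadjusted p under 0.05 in fibroblasts, 5.19% in smooth muscle, 5.54% in endothelial cells, 10.8% in epithelial cells, 4.91% in leukocytes and 12.7% in the sum of all barcodes. DESeq2 called 0.755%, 0.0%, 0.015%, 1.84%, 0.165% and 2.87% of the genes to which it gave an adjusted p, in the same order. In the sum of all barcodes 42 were tested (3 and 0, 0.0% of all genes), and in such a sum fewer cells of a type and less RNA per cell cannot be told apart. Mesothelial cells were left untested, as the tests were run only where each genotype had 2 libraries and no het library held 20 of them. Matrix genes took 1.18% and 1.13% of mesothelial UMIs in the 2 null libraries and 1.70% and 1.47% in the 2 wt libraries, a difference without overlap that was not tested. Dcn alone held a large part of these sums. It had 615 of 1215 and 424 of 966 matrix UMIs in the null libraries, and 715 of 1121 and 1165 of 2392 in the wt libraries. The sums are therefore no measure of the other matrix genes. On simulated counts of the fibroblast comparison, changes were put only into genes of higher mean CPM (66 or 67 per size). The test recovered 95.5% of 4-fold, 26.9% of 2-fold and 4.48% of 1.5-fold changes, with 10 false calls outside the changed genes, of 4471 genes in all. Recovery for genes of lower CPM was not simulated. In fibroblasts, changes of 2-fold and less would therefore mostly not be seen. On simulated counts of the endothelial comparison the test recovered 98.5% of 4-fold, 61.2% of 2-fold and 4.48% of 1.5-fold changes. Genotype comparisons of the other classes were not simulated.

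The interstitial collagens of fibroblasts overlapped between genotypes. Wt libraries held Col1a1 at 914, 1263, 994 and 978 CPM, het libraries at 1075 and 1247 and null libraries at 1069 and 965 (log2 0.15, 95% interval -0.32 to 0.62). Col3a1 was at 1421, 1782, 2061 and 2869 CPM in wt libraries, with het at 1767 and 2768 and null at 1696 and 2166 (0.15, -0.36 to 0.67), with a sign that turned in 4 alternatives. Every deleted library lay within the wt range for both genes. Sparc was at 1510, 1403, 1813 and 1680 CPM in wt libraries, with het at 1634 and 1969 and null at 1828 and 1777 (0.26, -0.19 to 0.71). Fn1 was at 1764, 1111, 1074 and 800 CPM in wt libraries, with het at 470 and 1014 and null at 969 and 1042 (-0.32, -0.94 to 0.30). Together the matrix genes took 3.18% ± 0.245 of fibroblast UMIs in wt (SD, n = 4), 2.95% ± 0.00854 in het (SD, n = 2) and 2.74% ± 0.0845 in null libraries (SD, n = 2).

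Ogn, Nid1 and Fbn1 had the lowest unadjusted p in fibroblasts. Ogn, which encodes osteoglycin, stood at 1053, 877, 1041 and 1234 CPM in wt libraries, with het at 515 and 320 and null at 432 and 796 (-0.98 ± 0.23, adjusted p = 0.19). The 4 deleted libraries lay below the 4 wt libraries, and adjusted p over the alternatives ran from 0.034 to 1.00. DESeq2 called Ogn (adjusted p = 0.047), and so did edgeR without het replicate 1 (adjusted p = 0.034). Nid1 stood at 749, 707, 725 and 630 CPM in wt libraries, with het at 296 and 352 and null at 390 and 481 (-0.82 ± 0.22, adjusted p = 0.30), again without overlap. Fbn1 stood at 761, 383, 732 and 736 CPM in wt libraries, with het at 261 and 279 and null at 353 and 396 (-0.93 ± 0.26, adjusted p = 0.30), with an overlap at wt replicate 2. The share of all genes without overlap between deleted and wt libraries was not counted, so the separation of genes picked by their p has no background here. The make-up of the fibroblasts differed beside these values. Alveolar cells were 6.38% to 16.7% of fibroblasts in wt and 11.7% to 25.2% in deleted libraries, and adventitial cells 25% to 57.1% and 29.8% to 45.5%. Nid1 and Fbn1 were higher in adventitial than in alveolar cells (1.74 ± 0.34 and 2.34 ± 0.36), and Ogn was not called between them. The part of this make-up in the genotype values was not tested.

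**Figure D4:**
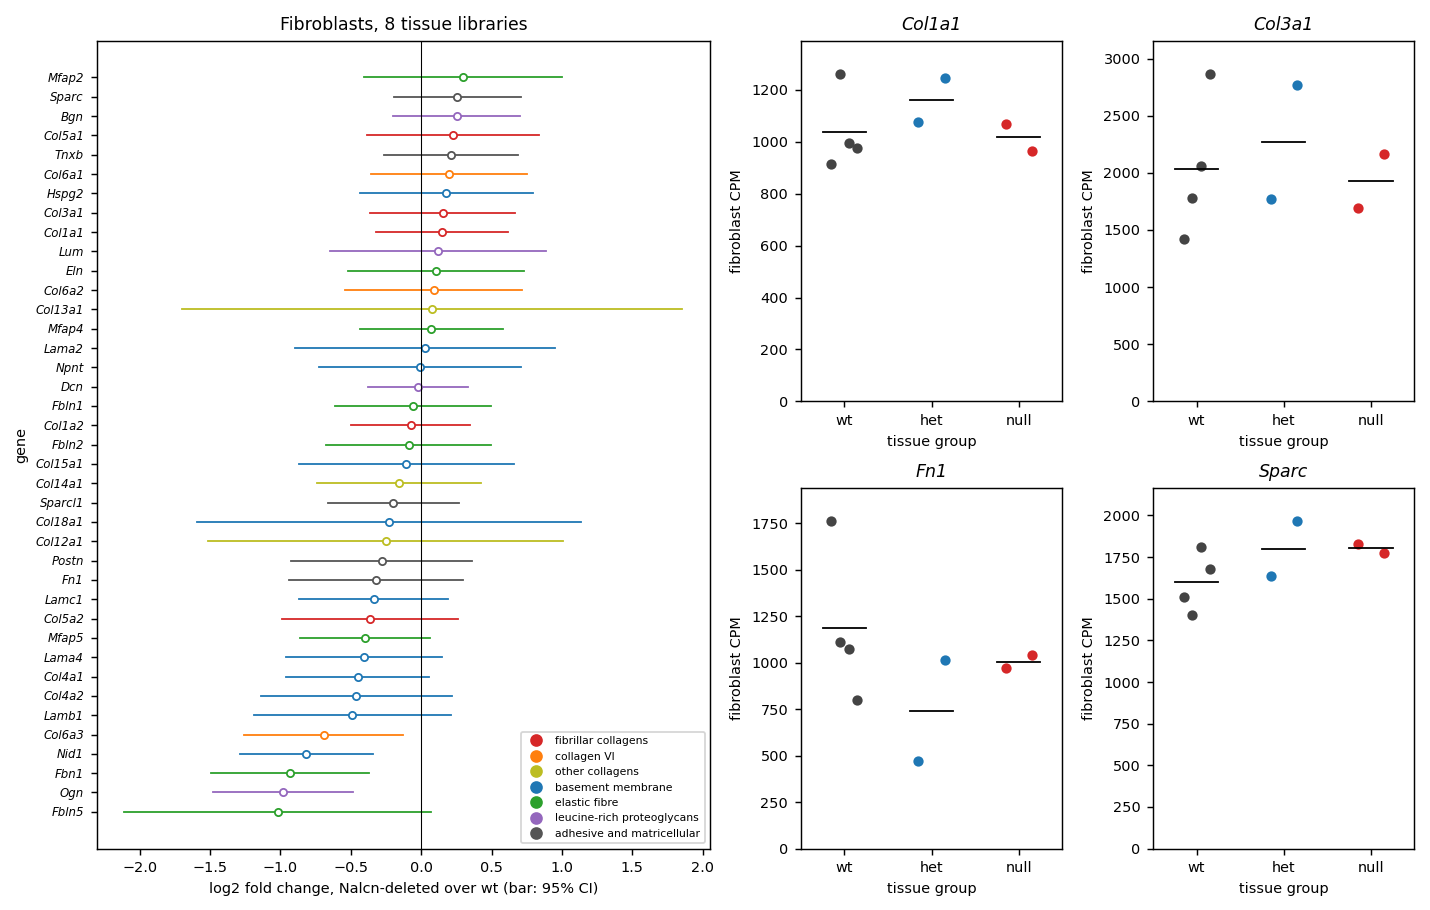
Left, log2 fold change (x axis) of 39 matrix genes between Nalcn-deleted (het and null) and wt fibroblasts, with bars for the 95% interval, and right, CPM of Col1a1, Col3a1, Fn1 and Sparc per library by group, with black lines at the mean. None of the 39 genes passed the adjusted test, and the 4 genes at right overlap between wt, het and null libraries.

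In the other classes no member passed either, and the value of Dcn in smooth muscle turned with single libraries. Dcn in smooth muscle stood at 6.58, 29.6 and 11.5 CPM in wt replicates 1, 2 and 4, with het at 503 and 0 and null at 157 and 266 (3.61 ± 1.18, adjusted p = 0.82), where het replicate 1 and both null libraries lay above the 3 wt libraries and het replicate 2 below them. The difference was -0.09 (adjusted p = 0.99) without het replicate 1 and 4.25 (adjusted p = 0.003) without het replicate 2, and it was called by edgeR with a replicate block in place of sex (4.59, adjusted p = 6.8e-06) and without the filter on low counts (3.51, adjusted p = 1.1e-06). These levels rest on 0 to 34 UMIs, and Dcn in the sum of all barcodes of these libraries was 28.5 to 173 CPM in wt and 127 to 412 CPM in deleted ones. The fibroblast gate markers in smooth muscle ranged from 115 to 185 CPM in wt and 97.6 to 206 in deleted libraries, and their part in the result was not tested. In endothelial cells Dcn (1.69 ± 0.57) and Mfap4 (1.41 ± 0.51) had adjusted p of 0.87, and fibroblast gate markers there ranged from 78.9 to 146 CPM in wt and from 119 to 305 in deleted libraries, whose part was not tested. In epithelial cells Npnt stood at 78.8, 78.2, 68.8 and 96.0 CPM in wt libraries, with het at 43.2 and 42.4 and null at 20.4 and 34.0 (-1.13 ± 0.19, adjusted p = 0.16). Deleted and wt libraries did not overlap for Npnt, though the share of all epithelial genes without overlap was not counted. DESeq2 called Npnt and Col4a1 (-1.41 ± 0.39 by edgeR, adjusted p = 0.32).

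The other question was which matrix genes circulating tagged cells express. The ntCZC libraries held 2501 barcodes (50 to 621 each) and 161541 to 2600526 UMIs each, and 2001 of the 2109 cells that passed were gated as leukocytes, with at least 20 in 9 of the 10 libraries (wt replicate 3 held fewer). The gates found 0 fibroblasts, 0 smooth muscle cells, 0 epithelial cells, 2 endothelial cells and 1 mesothelial cell, so leukocytes were the class compared. Another 52 ntCZC cells (2.47%, from 0% to 9.32% by library) met the marker rule of more than 1 class and were left out, and 53 met that of none. The counts of 0 therefore do not cover cells that also carried markers of another class. Among ntCZC leukocytes 28 of the 42 genes had no UMI in 10794829 UMIs, which allows up to 0.278 CPM. Barcodes outside the leukocyte gate did hold some of these genes, since in the sum of all ntCZC barcodes Sparc had 31 UMIs (19 in het replicate 1, 11 in null replicate 1 and 1 in wt replicate 3) and Dcn 12, Col1a1 4 and Col3a1 2, all in null replicate 1. The 28 genes at 0 in leukocytes included all 8 elastic fibre genes except Mfap2 (3 UMIs), all 4 leucine-rich proteoglycans and Col1a1, Col1a2 and Col3a1. The share of all genes without a UMI in these ntCZC leukocytes was not counted, so 28 of 42 has no background here. Tissue leukocytes were read more deeply, with 92856311 UMIs. Dcn was at least 57.7-fold lower and Bgn at least 30.1-fold lower than in tissue leukocytes, which held them at 16.0 and 8.37 CPM when the 9 libraries were summed. The level of these genes in lymphoid cells of tissue (17.1 CPM for Dcn and 8.51 for Bgn) was close to that of myeloid cells (14.9 and 6.26).

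Of the 42 genes, 5 had enough counts to be tested, and all 5 were called in a fit in which 51.2% of 9555 genes were called (25.8% higher and 25.4% lower in ntCZC). A gene could pass the filter through tissue alone, so the count over these 5 is no measure of the list. Fn1 was the 1 gene higher in ntCZC leukocytes. It stood at 610.5 CPM in the wt library, at 1384, 2724, 1057 and 99.2 in het and at 1245, 905, 1419 and 701 in null replicates 1 to 4, against 104 to 270 CPM in the 9 tissue libraries and 51.6 in PBMC. The difference was 2.80 ± 0.42 (adjusted p = 2.3e-05), and 8 of 9 ntCZC libraries lay above every tissue library, with het replicate 4 below the lowest. Myeloid cells made up 46.6% to 89.9% of ntCZC and 28.4% to 63.1% of tissue leukocytes. Within myeloid cells Fn1 stood at 122 to 3289 CPM in ntCZC against 149 to 373 in tissue (2.60, adjusted p = 8.5e-05) and at 332 CPM in PBMC. In lymphoid cells it was at most 9.89 CPM in ntCZC. The sort for the green tag and the organ pool cannot be told apart from blood against tissue in this comparison.

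The other 4 tested genes were lower in ntCZC leukocytes. Sparc had 0 UMIs in leukocytes of all 9 ntCZC libraries and of PBMC and 4.91 to 24.1 CPM in tissue leukocytes, at least 43.4-fold lower. Tissue lymphoid (10.5 CPM) and myeloid cells (10.95) carried Sparc at like levels. Col4a1 ran from 0 to 7.13 CPM in ntCZC and from 6.21 to 14.9 in tissue (-2.12 ± 0.38, adjusted p = 1.6e-04), where lymphoid and myeloid cells again had like means (8.07 and 8.48). Col14a1 had 4 UMIs in ntCZC, all in het replicate 1, and stood at 5.93 to 19.5 CPM in tissue. Summed over libraries this was 0.371 CPM in ntCZC (95% Poisson interval for counting error 0.101 to 0.949) against 9.35 in tissue, where it was found at 13.3 CPM in myeloid and 2.46 in lymphoid cells. Lamc1, a laminin chain found in every leukocyte library, ran from 2.09 to 17.6 CPM in ntCZC and from 7.19 to 11.7 in tissue (-0.87 ± 0.32, adjusted p = 0.032). This call was lost in 7 alternatives, among them those without het replicate 1, het replicate 4, null replicate 2 or null replicate 4. Nid1, which was not tested, reached 40.3 CPM in het replicate 3 and at most 2.93 in the other ntCZC libraries, and was higher in lymphoid than in myeloid cells of tissue (24.99 ± 36.2 and 1.84 ± 1.22 CPM, SD, n = 9). The tissue lymphoid mean was raised by wt replicate 5, whose 22 lymphoid cells held 119 CPM, and lymphoid cells of ntCZC het replicate 3 held 65.7.

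**Figure D5:**
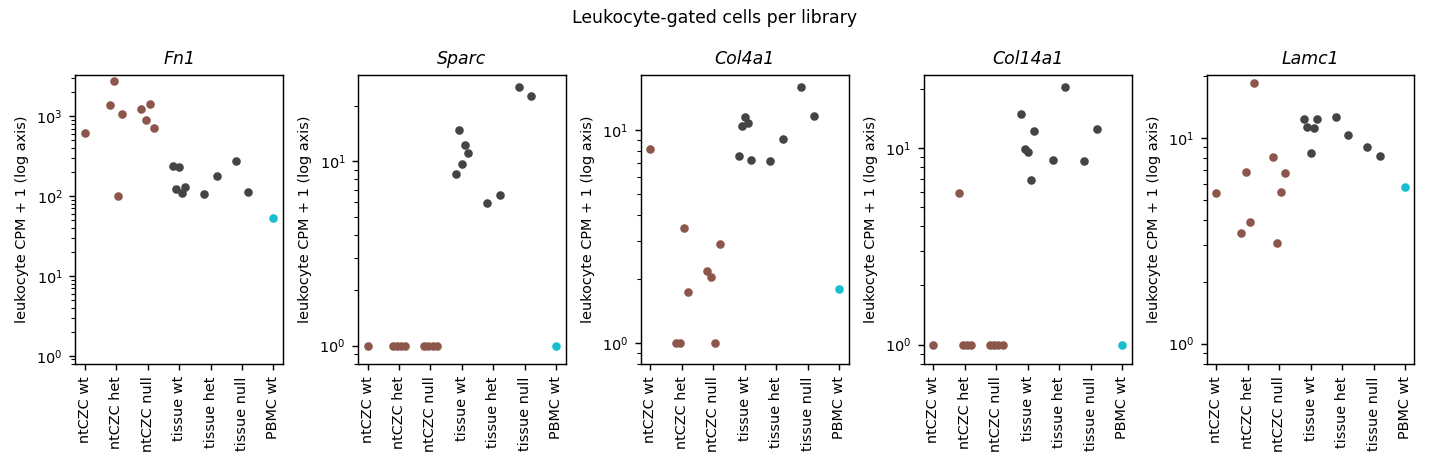
CPM + 1 (log axis) of Fn1, Sparc, Col4a1, Col14a1 and Lamc1 in leukocytes of each library (points) by group (x axis). Fn1 in ntCZC lies above tissue except in het replicate 4, and Sparc is at 0 in all ntCZC libraries.

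Genes that make, fasten or sense the matrix were followed from lists outside the 42. Of 20 genes of collagen processing and cross-linking, 18 were tested between classes, and 11 were higher and none lower in fibroblasts than in smooth muscle, 14 and none against endothelial cells and 17 and none against epithelial cells. Over all genes 14.6%, 19.1% and 18.8% were called higher in these 3 comparisons and 8.42%, 21.0% and 33.7% lower, which is the background for each of these lists. Against mesothelial cells 6 of the 18 processing genes were higher and none lower (5.43% and 3.78% of all genes). Against leukocytes 15 were higher and 1 lower (23.4% and 32.4%). The lysyl oxidase relative Loxl1 stood at 223 CPM in fibroblasts against 118 in mesothelial, 26.1 in smooth muscle and 2.24 in endothelial cells, and Pcolce2, an enhancer of procollagen processing, at 370 against 3.08, 2.11 and 47.4. Of 11 other basement membrane genes 9 were tested, with 1 higher and 3 lower in fibroblasts than in smooth muscle and 4 higher and 5 lower than in epithelial cells. Lama5, the laminin chain of mature basement membranes, stood at 106 CPM in smooth muscle, 59.4 in endothelial and 33.4 in epithelial cells and 2.95 in fibroblasts. Of 16 matrix receptors, 9 were higher and 6 lower in fibroblasts than in endothelial cells. Of the collagen receptors, Ddr2 stood at 281 CPM in fibroblasts, 119 in mesothelial cells, 95.7 in smooth muscle, 14.2 in endothelial and 2.04 in epithelial cells, and Ddr1 at 18.9, 97.6, 45.8, 5.19 and 68.0 in the same order. Of 16 genes of the TGF-beta pathway, 12 were higher and 2 lower in fibroblasts than in endothelial cells, among them Ltbp4, which tethers the latent factor, at 698 and 226 CPM.

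Between genotypes no gene of these 4 lists was called by edgeR in any class. Between adventitial and alveolar cells 6 processing genes were tested, and 1 (Adamts2, 2.39 ± 0.62, adjusted p = 0.024) was higher. Of 6 receptors tested there 1, Itga8, was lower, and of 8 TGF-beta pathway genes 1 was lower. The background for these counts is the 16.7% of genes called between adventitial and alveolar cells. Between ntCZC and tissue leukocytes, 9 receptors were tested, with 1 higher and 5 lower. Itgb1, the beta chain that most matrix integrins share, was higher by 0.85 ± 0.12 (adjusted p = 1.4e-05), and Itga5, its partner in the main fibronectin receptor, was lower by -1.21 ± 0.16 (adjusted p = 5.6e-06). Of 9 TGF-beta pathway genes tested there, 5 were higher and 2 lower, with Tgfbr3 at 1.38 ± 0.22 and Tgfbr2 at -0.82 ± 0.13 (adjusted p = 4.1e-05 and 4.4e-05). The background for both lists is the 51.2% of genes called in this comparison.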

How the data were processed

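The authors prepared 3′ single-cell libraries and, per the labels, used Cell Ranger and mm10 (version 3.0.2 by the matrix headers and 2.1.1 by the submitters' processing notes, which also list Seurat). The deposited values are raw UMI counts, without normalization. Organs had been marked with hashtag antibodies, whose counts were not used here, so no cell had an organ of origin. From the counts, barcodes holding 200 genes or more, with no more than 25% mitochondrial UMIs, were gated by marker genes, cells in more than 1 gate were left out in place of a doublet caller, and counts were summed per class and library with at least 20 cells. CPM used the class total of a library.

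The members and lists were chosen with earlier results of these data known. Genes given by library were up to 3 per family with the most UMIs in their highest class, every member called between genotypes or between ntCZC and tissue, Col1a1, Col3a1, Fn1 and Sparc by genotype, and the 2 genes of each other list with the smallest adjusted p. Other genes with values were chosen after these were seen. Tests used edgeR (4.0.16; quasi-likelihood, TMM, filterByExpr, Benjamini-Hochberg adjustment at 0.05), with library as a block between classes and sex as covariate between groups. Bounds for a count of 0 use 3 UMIs over the group and cover counting error only. Library totals give the depth behind each value. Alternatives were RLE scaling, DESeq2 (1.42.0), no filter on low counts, other gates, no block or covariate and each library left out, and, added after seeing the data, tissue wt replicates 1 and 2 left out together. The scripts were tested on simulated data. No pair of replicates agreed within sampling noise (lowest chi-square 4.11 per degree of freedom). Coordinates and promoters are of GRCm38.p6. The Ensembl gene models of Col4a1 and Col4a2 overlap, as do Col18a1 and Slc19a1, Fbn1 and Gm9913, Mfap4 and Mapk7, and Ogn and Cenpp on the opposite strand.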

Additional observations from a re-analysis of the deposited data

Results flagged for a closer look

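In 41 groups of 4 to 10 libraries examined for a single library far from the rest, 8 stood out by Dixon's test at its 95% limit, where chance gives about 1 in 20. In tissue fibroblasts, Lum was 1922 CPM in wt replicate 4, with the next library at 1124, and Col6a3 was 536 CPM in the same library, with the next at 309. Col14a1 was 1371 CPM in fibroblasts of wt replicate 1, which held 24 such cells, with the next at 912. In ntCZC leukocytes, Fn1 was 2724 CPM in het replicate 2 (next 1419), Lamc1 was 17.6 CPM in het replicate 3 (next 7.05), Col4a1 was 7.13 CPM in wt replicate 1 (next 2.48) and Col14a1 was 4.90 CPM in het replicate 1 (next 0). The share of UMIs in matrix genes was 0.0602% in tissue leukocytes of null replicate 2, with the next at 0.0389%. Without ntCZC het replicate 2 the difference of Fn1 from tissue leukocytes was 2.5 on the log2 scale (adjusted p = 7.9e-05 by edgeR), and without het replicate 3 that of Lamc1 was -1.34.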

How the results depend on the processing

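Of 262 recomputed counts of called matrix genes, 244 stayed within 1.5 times the value reported. With no marker of another class allowed, fewer cells remained, and 21 matrix genes (19 higher, 2 lower), of 436 genes called in all (3.29% of those tested), were called between fibroblasts and smooth muscle, and, given in the same way, 6 of 49 (0.37%) against mesothelial cells, 4 between smooth muscle and endothelial cells (4.72% of all genes) and 2 of 3871 (45.1%) between ntCZC and tissue leukocytes. With at least 3 markers 12 (of 104) were called between adventitial and alveolar cells. Without the filter on low counts, 1 (Dcn) was called between genotypes in smooth muscle (0.135% of all genes), 2 (Dcn and Mfap4) in endothelial cells (0.316%) and 40 (39 lower in ntCZC) between ntCZC and tissue (32.6%). DESeq2 called 1 (Ogn) in fibroblasts and 2 (Npnt and Col4a1) in epithelial cells between genotypes. Between ntCZC and tissue, 1 (of 4240) was called at a 500-gene and 10% mitochondrial limit, 3 (of 4275) within myeloid cells and 3 (of 4567) without tissue wt replicates 1 and 2, which also gave 1 (lower, of 17) in smooth muscle between genotypes. Fewer matrix genes were tested in these ntCZC fits, with 2, 3 and 4 in this order against 5 in the main fit. With no marker of another class allowed, 2 were tested. Replicate numbers do not pair libraries by the labels, and deviations of same-numbered libraries had correlations of -0.30 to -0.063 in tissue and -0.051 to 0.27 between ntCZC and tissue. A replicate block without sex gave 2 (Col3a1 and Dcn, of 22) in smooth muscle between genotypes, 0 in the other classes and 7 between ntCZC and tissue, and leaving the library block out gave 26 to 41 between classes and 20 between adventitial and alveolar cells. With 1 library left out, counts ran from 32 to 33 against smooth muscle, 28 to 33 against mesothelial, 34 to 37 against endothelial and 41 to 41 against epithelial cells and leukocytes, 25 to 29 between smooth muscle and endothelial, 34 to 37 between endothelial and epithelial, 7 (without null replicate 3) to 21 between adventitial and alveolar cells and 4 to 6 between ntCZC and tissue, and between genotypes from 0 to 1 in fibroblasts (1 without het replicate 1) and smooth muscle (1 without het replicate 2) and 0 in the other classes.

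Of the recomputed log2 differences of single genes, 1105 kept their direction and call, 43 lost the call, 15 gained it and 14 changed sign. For fibroblasts against smooth muscle these were Col4a1 (1.02 with no other marker, 0.027 with at least 3 markers) and Col4a2 (0.31 with no other marker), and for smooth muscle against endothelial cells Col4a2 (-1.26 with no other marker). Hspg2 against endothelial cells was 0.13 with at least 500 genes and 0.050 without tissue wt replicates 1 and 2, and Col18a1 against epithelial cells was 0.12 without het replicate 1, 0.069 without null replicate 2 and 0.16 without wt replicate 4 (-0.34 to 0.16 with 1 library left out). Between genotypes Col3a1 in fibroblasts was -0.13 with no other marker, -0.16 for null against wt, -0.036 without het replicate 2 (-0.036 to 0.33 with 1 library left out) and -0.11 without tissue wt replicates 1 and 2, and Dcn in smooth muscle was -0.094 without het replicate 1 (to 4.57 without wt replicate 2). The causes were not tested. Over all genes, DESeq2 called more between genotypes than edgeR, with 20 (17 higher, 3 lower) against 7 in fibroblasts, 1 against 0 in endothelial cells, 244 (181 and 63) against 2 in epithelial cells, 22 (15 and 7) against 0 in leukocytes and 511 (302 and 209) against 0 in the sum of all barcodes, and fewer between adventitial and alveolar cells (106 against 181). Too few cells met the 500-gene limit to give a value for smooth muscle, mesothelial or adventitial against alveolar cells. Depth limited the smooth muscle, mesothelial and alveolar values, which rest on few cells, and the 28 genes without a UMI in ntCZC leukocytes.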

Other observations

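The 2 tissue libraries whose labels gave conflicting genotypes are given as values. In the male library (610 days) and the female library (647 days), fibroblasts numbered 103 and 294. Ogn stood at 579 and 823 CPM, Nid1 at 710 and 374, Fbn1 at 660 and 392 and Col3a1 at 1319 and 1296. Npnt had no UMI in fibroblasts of the first, where alveolar cells were 1.94% of fibroblasts, and stood at 446 CPM in the second, where they were 25.9%. In alveolar cells of the second, Npnt was 1421 and Mfap4 2423 CPM, against 73.9 and 164 in its adventitial cells. In mesothelial cells of the second (70 cells), Mfap4 and Postn each had 6 UMIs (43.0 CPM), and both had none in the first (20 cells). Fn1 in leukocytes was 312 and 95.1 CPM.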
